A study of Mus musculus with 6 samples.

Results

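The genes described here are 10 genes of the Notch pathway, out of 49548 genes in a count table of mouse native cardiac fibroblasts (CFs). They are 3 receptors (Notch1, Notch2 and Notch4), 3 ligands (Dll4, Jag1 and Jag2), the nuclear effector Rbpj and 3 targets (Hes1, Hey1 and Heyl), and each was found in the table by its gene symbol. The list of genes was selected on measured values in part, since it was drawn up with results of the comparison of CharmeKO with WT known, and Rbpj was among the genes with lower counts there. Values of that comparison for the 10 genes are therefore given as a description and without p-values. Where calls among them are counted, they stand beside the share of all tested genes and nothing is read from them.

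The table holds 3 WT and 3 CharmeKO libraries of poly(A) RNA from native CFs of mice aged 5 weeks. Charme is a long noncoding RNA of striated muscle, and per the study's methods the CharmeKO mice are C57BL/6J animals in which a poly(A) signal was inserted into the Charme locus, while the WT mice carry no insertion. The methods name no driver that would restrict the insertion to a cell type. Both groups shared the same preparation, in which hearts were dissociated with enzymes, red blood cells were lysed and cells of the hematopoietic lineage were depleted with magnetic beads. The labels also name a growth medium, although the methods describe freshly isolated cells.

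Notch receptors are cell surface proteins that are bound by ligands of the Delta and Jagged families on a neighbouring cell. Binding leads to cleavage of the receptor, and its intracellular part moves to the nucleus, where it joins the DNA-binding protein Rbpj and Mastermind coactivators and turns on genes such as those of the Hes and Hey families. Without the receptor fragment, Rbpj works with corepressors at the same genes, and in the heart the pathway is best known from the endothelium, the mural cells of vessels and the developing valves.

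The libraries held between 9595701 and 42101393 counts, and WT replicate 3 was the shallowest. The unit of all levels is CPM, in which a gene's count is scaled to the normalized total of its library. The limit that a count of 0 allows, 3 counts, corresponded to 0.0705 to 0.323 CPM depending on the library, and this covers counting error only. Charme itself had 26, 15 and 4 counts in WT replicates 1, 2 and 3 and 7, 0 and 0 counts in CharmeKO replicates 1, 2 and 3, so that CharmeKO replicate 1 overlapped with WT in counts, while in CPM it was at 0.244, below the lowest WT library at 0.430. In the same order, Xist, a transcript of the inactive X chromosome, was at 394.6, 2.55 and 0 CPM in WT and at 473.4, 376.2 and 0.296 CPM in CharmeKO, and the Y-linked gene Ddx3y was at 0, 57.1 and 55.3 CPM and at 2.06, 0 and 48.6 CPM. The groups thus held 1 and 2 libraries with high Xist, and the labels give no sex. Both transcripts were present in WT replicate 2 and in CharmeKO replicates 1 and 3, the lesser at 2.55, 2.06 and 0.296 CPM. Of all genes in the table, 15789 had at least 10 counts in at least 2 libraries and were tested, and all 10 Notch pathway genes were among them.

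The markers of the labelled cell type were present. The summed level of 8 fibroblast markers was 13570 to 18900 CPM in WT and 11160 to 16050 CPM in CharmeKO. Markers of the cells in which Notch genes are best known were present too, with 6041 to 7269 CPM in WT and 6076 to 7287 CPM in CharmeKO for 8 pan-endothelial genes, and 1984 to 2295 CPM and 2038 to 2391 CPM for 8 mural genes. These 3 sums overlapped between the genotypes, while single markers were lower or higher in CharmeKO. Vwf, a pan-endothelial marker, had a log2 fold change of −0.49 (SE 0.14, edgeR adjusted p = 0.159, DESeq2 adjusted p = 0.00906), and the mural marker Cspg4 one of −0.57 (SE 0.14, edgeR adjusted p = 0.126, DESeq2 adjusted p = 0.0158). The fibroblast markers Col1a1 and Mfap5 were at −0.77 (SE 0.23, edgeR adjusted p = 0.189, DESeq2 adjusted p = 0.0102) and −0.63 (SE 0.17, edgeR adjusted p = 0.168, DESeq2 adjusted p = 0.0150). These 4, named after their values were seen, passed in DESeq2 and not in edgeR. Log2 fold changes were above 0 for 5 of 8 pan-endothelial, 4 of 8 mural and 3 of 8 fibroblast markers. Among these, Kdr (0.378, SE 0.142), Tek (0.276, SE 0.135), Emcn (0.307, SE 0.115) and Dcn (0.295, SE 0.131) had higher CharmeKO groups without overlap. They passed in neither test. The part of all these markers in the values of the Notch pathway genes was not tested. The levels below are therefore those of a mixture, and in such bulk samples fewer cells of a type and less RNA per cell cannot be told apart.

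Rbpj, the protein that brings the Notch receptor fragment to DNA, showed the lowest CharmeKO values relative to WT of the 10 genes. Its normalized level was 55.7, 43.9 and 47.8 CPM in WT and 22.6, 19.2 and 25.3 CPM in CharmeKO. All 3 CharmeKO libraries lay below all 3 WT libraries, and the highest CharmeKO library was well under the lowest WT library. The WT mean was 49.1 ± 6.03 CPM and the CharmeKO mean 22.3 ± 3.07 CPM (SD, n = 3 each), a log2 fold change of −1.14 (SE 0.14), which puts CharmeKO at 45.4% of WT. This was the contrast that was known when the genes were chosen.

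The promoter of Rbpj is shown because it was the only one among those of the genes described here that held the core sequence to which Rbpj itself binds, TGGGAA. The core was searched on both strands in the 250 bases before the transcription start in RefSeq (GRCm38.p6), with TTCCCA as its other strand and no other motif searched. It occurred in 21.6% of 32851 such windows of all genes. Of the 10 genes, 7 had a window (Notch1, Notch2, Notch4, Dll4, Jag1, Jag2 and Rbpj), and 1 of these 7 held the core. In the first of 2 overlapping Rbpj windows, chr5:53590096-53590345 on the + strand, it started 149 bases before the transcription start and, on the opposite strand, 65 bases before it. In the sequence, capitals mark both matches, and a match is a description of the letters and not a site.
Rbpj promoter: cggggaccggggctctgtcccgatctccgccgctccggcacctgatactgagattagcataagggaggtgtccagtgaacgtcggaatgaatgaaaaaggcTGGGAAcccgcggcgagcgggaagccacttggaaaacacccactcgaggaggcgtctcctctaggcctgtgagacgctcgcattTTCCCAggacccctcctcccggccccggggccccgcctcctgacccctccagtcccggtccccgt

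Among the receptors, Notch1, the main receptor of the endothelium, was at 509.3, 663.0 and 550.4 CPM in WT and at 494.7, 518.2 and 500.9 CPM in CharmeKO. The groups overlapped, with WT replicate 2 above the other 5 libraries, and the log2 fold change was −0.19 (SE 0.13). Notch4, a receptor that is largely restricted to endothelial cells, was at 424.7, 604.3 and 520.7 CPM in WT and at 294.9, 363.9 and 435.7 CPM in CharmeKO. CharmeKO replicate 3 was above WT replicate 1, so that these groups overlapped as well, and the log2 fold change was −0.50 (SE 0.17). Notch2, a receptor found in many cell types including vascular smooth muscle, was at 107.1, 111.3 and 135.5 CPM in WT and at 89.5, 87.8 and 77.1 CPM in CharmeKO. Its groups did not overlap, and the log2 fold change was −0.47 (SE 0.12), with CharmeKO at 72.0% of WT.

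Of the ligands, Dll4, the Delta ligand of arterial and sprouting endothelium, was at 265.8, 264.5 and 211.3 CPM in WT and at 251.3, 229.5 and 216.1 CPM in CharmeKO. WT replicate 3 was the lowest of the 6 libraries, and the log2 fold change was −0.09 (SE 0.13). Jag1, a Jagged ligand with which endothelial and mural cells signal to each other, was the only one of the 10 genes with a higher mean in CharmeKO. It was at 90.0, 90.4 and 95.4 CPM in WT and at 121.0, 111.6 and 86.1 CPM in CharmeKO. CharmeKO replicate 3 lay below all WT libraries and CharmeKO replicates 1 and 2 above them, and the log2 fold change was 0.21 (SE 0.13). Jag2, the other Jagged ligand, was at 229.3, 320.2 and 273.8 CPM in WT and at 230.5, 238.3 and 269.8 CPM in CharmeKO, with overlapping groups and a log2 fold change of −0.16 (SE 0.14).

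The targets are basic helix-loop-helix repressors that Notch signalling turns on. Hes1 was at 145.1, 203.2 and 124.1 CPM in WT and at 137.5, 125.8 and 154.0 CPM in CharmeKO. WT replicates 2 and 3 were the highest and the lowest of the 6 libraries, and the log2 fold change was −0.18 (SE 0.17), or 0.04 without WT replicate 2. Hey1, a target best known from arterial endothelium, was at 77.4, 78.1 and 60.6 CPM in WT and at 73.2, 66.2 and 59.6 CPM in CharmeKO, and Heyl, a target found in mural cells, was at 97.4, 105.2 and 105.1 CPM and at 105.3, 92.3 and 105.7 CPM. Both had overlapping groups, with log2 fold changes of −0.12 (SE 0.13) and −0.02 (SE 0.11). WT replicate 2 was thus the highest library for Notch1, Notch4, Jag2, Hes1 and, by a small margin over WT replicate 1, Hey1. The same library had the highest summed level of 9 immediate early genes, which are induced within minutes when cells are stressed, at 40180 CPM, against 26680 CPM in the lowest WT library and 29520 to 33290 CPM in CharmeKO, and the part of this in the values of those Notch pathway genes was not tested.

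**Figure D1:**
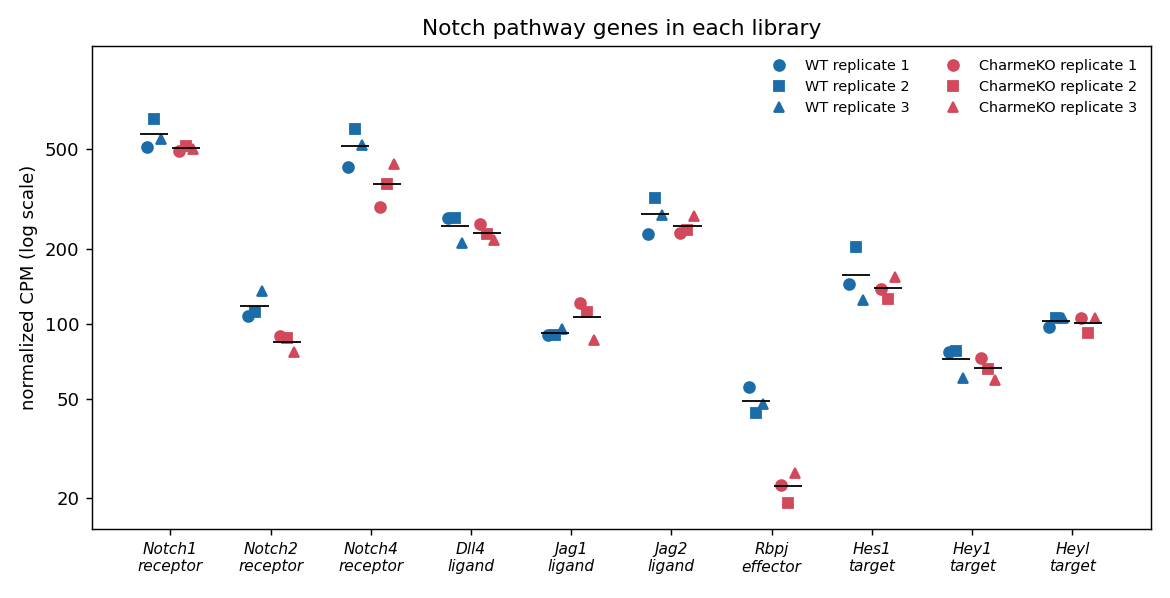
Normalized CPM on a log axis of the 10 Notch pathway genes in the 3 WT libraries (blue) and the 3 CharmeKO libraries (red), with symbols for the replicate and black lines for the group means. The groups are apart for Rbpj (43.9 to 55.7 against 19.2 to 25.3 CPM) and Notch2 (107.1 to 135.5 against 77.1 to 89.5 CPM) and overlap for the other 8 genes.

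The 10 genes together had a median log2 fold change of −0.17, against 0.01 over all tested genes. Values were below 0 for 9 genes, whereas 7700 of 15789 tested genes were below 0. In the quasi-likelihood test of edgeR, 1 of the 10 genes, Rbpj, passed the threshold of 0.05 on the Benjamini-Hochberg adjusted p, where 0.412% of tested genes passed it with lower values and 0.830% in either direction. All 3 CharmeKO values lay below all 3 WT values for 2 of the 10 genes, Rbpj and Notch2, as they did for 8.59% of tested genes, and groups that did not overlap in either direction were found for 18.2% of tested genes. With DESeq2 in place of edgeR, 2 of the 10 genes passed, Rbpj and Notch2, where 2.55% of 15481 genes with an adjusted p did. These counts come from the contrast that was known when the list was made.

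**Figure D2:**
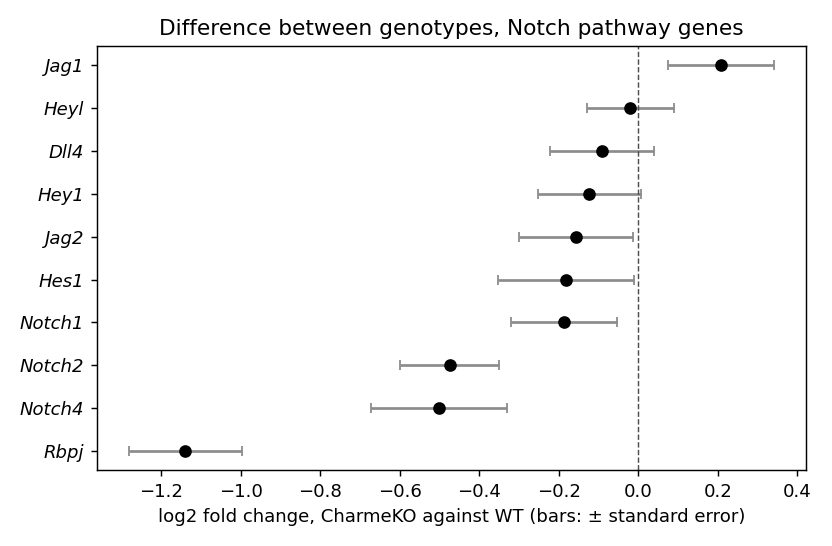
Log2 fold change of CharmeKO against WT by edgeR for the 10 Notch pathway genes, with bars for the standard error and a dashed line at 0. The points run from −1.14 for Rbpj through −0.50 for Notch4 and −0.47 for Notch2 to 0.21 for Jag1, the only point above 0.

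Levels of different genes were compared only per length, as CPM per kb of all annotated exons of a gene, and the values are means over the 6 libraries with their SD. Hes1 was at 72.8 ± 14.3, Dll4 at 62.2 ± 6.25 and Notch4 at 54.7 ± 13.7 CPM per kb. They were followed by Notch1 at 37.9 ± 4.47, Jag2 at 37.4 ± 5.05, Hey1 at 21.2 ± 2.51, Heyl at 19.9 ± 1.11, Jag1 at 17.0 ± 2.40 and Notch2 at 9.40 ± 1.95 CPM per kb. Rbpj was at the lower end with 2.80 ± 1.20 CPM per kb over both genotypes, 3.85 ± 0.473 in WT and 1.75 ± 0.241 in CharmeKO (SD, n = 3 each). Its value depends on the length used, since all its exons span 12750 bases and its longest transcript 5485, and per kb of the latter it was 6.51 ± 2.79 CPM, again the lowest of the 10 genes. The order was clear at 4 of the 9 steps, those from Notch4 to Notch1, Jag2 to Hey1, Jag1 to Notch2 and Notch2 to Rbpj, where the first gene was higher in all 6 libraries and the means differed by more than the larger SD. From Heyl to Jag1 the means differed by 2.90 CPM per kb, more than the larger SD of 2.40, but the first gene was higher in 4 of 6 libraries. From Hes1 to Dll4 the first gene was higher in all 6 libraries, but the difference of 10.6 CPM per kb was smaller than the larger SD of 14.3. The steps from Dll4 to Notch4, Notch1 to Jag2 and Hey1 to Heyl did not exceed the spread, and the first gene was higher in 4 of 6 libraries at each.

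**Figure D3:**
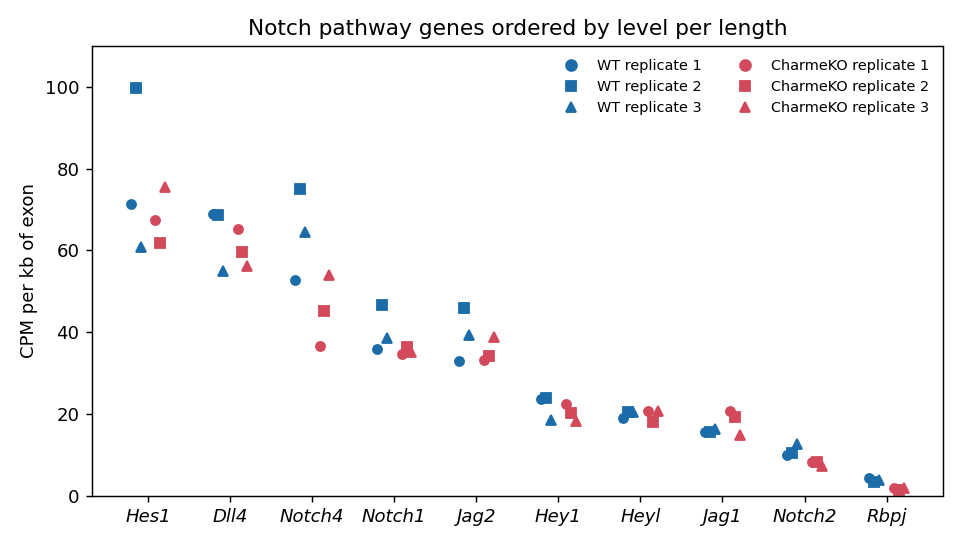
CPM per kb of exon for the 10 Notch pathway genes in each of the 6 libraries, ordered by their mean, with blue for WT and red for CharmeKO. The levels run from 72.8 CPM per kb for Hes1 to 2.80 for Rbpj, and neighbours such as Notch1 (37.9) and Jag2 (37.4) lie within each other's spread.

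Rbpj has a processed pseudogene, Rbpj-ps3, a copy without introns on another chromosome, and the 2 genes showed opposite directions. Rbpj-ps3 had 9, 2 and 1 counts in WT and 107, 127 and 115 counts in CharmeKO. In normalized CPM this was 0.212, 0.0761 and 0.108 in WT and 3.74, 5.20 and 3.78 in CharmeKO. All 3 CharmeKO libraries were far above all 3 WT libraries, and WT replicates 2 and 3 lay under the limit that a count of 0 allows. Rbpj-ps3 is not among the 10 genes, and it rose by 4.81 on the log2 scale (SE 0.47, edgeR's quasi-likelihood test, Benjamini-Hochberg adjusted p = 0.000361). It passed the filter on low counts through the CharmeKO libraries alone, which are those where it is high, and with so few WT counts the size of the fitted change depends on the model. Summed over each group, 349 counts stood against 12, a ratio of 27.2 after scaling to library totals, with an interval of 15.4 to 53.2 that covers counting error only.

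The 2 genes share most of the sequence that encodes the protein. In the GENCODE transcripts of GRCm38, which is another build than that of the counts, Rbpj lies on chromosome 5 and Rbpj-ps3 on chromosome 6, on the − strand within the gene Cntnap2 but outside its exons. The 1441 bases of Rbpj-ps3 aligned without a gap to bases 300 to 1740 of the 5485 bases of the longest Rbpj transcript, at an identity of 99.7%. The whole stretch is coding sequence in Rbpj and covers 1441 of its 1521 coding bases, while 4044 bases of the transcript have no counterpart in the pseudogene. There were 4 substitutions, T310C, C949A, G952A and A1088C, in which the base of Rbpj comes first and positions count from base 1 of the pseudogene. The longest identical run was 638 bases. These differences are shown because reads that lie within the stretch and cover none of them have the same bases in both genes. This holds across exon junctions of Rbpj as well, since Rbpj-ps3 is a copy without introns. Each pair gives 29 bases with the differing bases in capitals.
Rbpj, around position 310: gggaagaactactgTacagccaaaacatt
Rbpj-ps3, around position 310: gggaagaactactgCacagccaaaacatt
Rbpj, around positions 949 and 952: agcacagacaaggcCgaGtacacgttcta
Rbpj-ps3, around positions 949 and 952: agcacagacaaggcAgaAtacacgttcta
Rbpj, around position 1088: ttactccaaatttaAgagtgtggtttggg
Rbpj-ps3, around position 1088: ttactccaaatttaCgagtgtggtttggg

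The authors' counting mode leaves out reads that map equally well to several places, so the counts of both genes come from the other reads, are uncertain to that extent, and their placement was not tested. Of the counts on the 2 genes together, Rbpj-ps3 took 0.378% (exact 95% binomial interval 0.173 to 0.717) in WT replicate 1, 0.173% (0.0210 to 0.624) in replicate 2 and 0.225% (0.00569 to 1.25) in replicate 3. In CharmeKO it took 14.2% (11.8 to 16.9) in replicate 1, 21.3% (18.1 to 24.9) in replicate 2 and 13.0% (10.9 to 15.4) in replicate 3. The shares of the 3 CharmeKO libraries all lay above those of the 3 WT libraries, and the intervals cover counting error within a library only. The sum of both genes was 55.9, 44.0 and 47.9 CPM in WT and 26.3, 24.3 and 29.0 CPM in CharmeKO. Groups did not overlap in this sum. Reads that map equally well to both genes are missing from the sum too. It is therefore not the total of both genes and cannot show where those reads belong. Most of it is the count of Rbpj, whose contrast was known when the genes were chosen. The mean difference was −26.8 CPM for Rbpj and 4.11 CPM for Rbpj-ps3, which is 15.3% of the size of the former. With the counts of both genes summed before the test, an analysis chosen after seeing the data, the log2 fold change of Rbpj was −0.89 (SE 0.13) in place of −1.14.

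**Figure D4:**
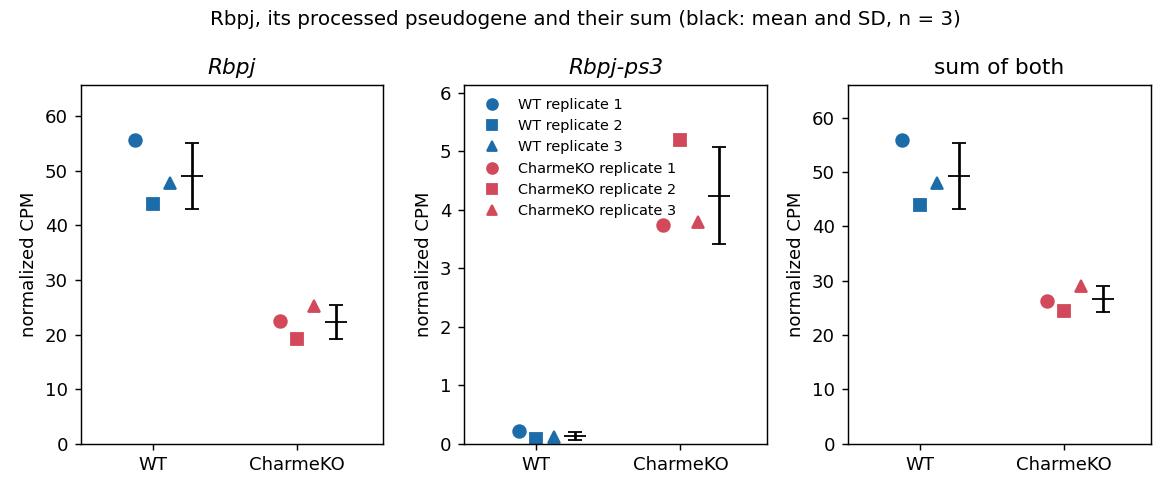
Normalized CPM of Rbpj, of its processed pseudogene Rbpj-ps3 and of their sum in the 3 WT libraries (blue) and the 3 CharmeKO libraries (red), each on its own axis from 0, with the mean and SD in black. The CharmeKO libraries are lower for Rbpj (22.3 against 49.1 CPM), higher for Rbpj-ps3 (4.24 against 0.132 CPM) and lower for the sum (26.6 against 49.3 CPM).

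Transcription at the loci was looked at in the genes around them. Cntnap2, the host gene of Rbpj-ps3 on the other strand, had 12, 2 and 0 counts in WT and 4, 2 and 2 counts in CharmeKO. Gm10441 and Gm40304, the annotated genes that overlap the Rbpj locus, had 0 counts in all 6 libraries. No other gene outside the loci of the 10 genes shared at least 200 bases at 97% identity or more with the longest transcript of any of them. Exons outside the longest transcript were not searched. Annotated genes within the loci that shared such a stretch were Gm14207 at Dll4 and 0610009E02Rik and Gm13568 at Notch1 on the opposite strand, and Gm42820 at Notch2 on the same strand.

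Other genes of the pathway were taken from a list of 74 genes by role, of which 73 were in the table, and Rbpj-ps2 was not analysed here. The filter on low counts was passed by 65, and 1 of them passed the test, Rbpj-ps3. It was higher in CharmeKO and had passed the filter through the CharmeKO libraries alone. No gene of the list passed with lower values in edgeR's quasi-likelihood test, where 14 of the 65 had an unadjusted p under 0.05 and 2 passed in DESeq2, among them Rbpj-ps3. Over all 15789 tested genes, 2017 had an unadjusted p under 0.05, and 0.830% passed in edgeR. In DESeq2, 2.55% of the genes with an adjusted p passed. The median log2 fold change of the 65 genes was −0.02, against 0.01 over all tested genes, with 35 values below 0 and 29 above, and groups did not overlap for 15, where 18.2% of all tested genes had groups that did not overlap.

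Notch3, the receptor of mural cells and the only other receptor, was at 496.9, 505.1 and 454.0 CPM in WT and at 407.0, 312.2 and 412.2 CPM in CharmeKO. Its groups did not overlap, but the log2 fold change of −0.36 (SE 0.14) did not pass the test (edgeR's quasi-likelihood test, adjusted p = 0.306). With Notch1, Notch2 and Notch4, all 4 receptors had lower means in CharmeKO, and none passed in the main fit of edgeR. Of these, Notch2 passed in DESeq2, as did 2.55% of all genes with an adjusted p. Dll1, another Delta ligand, had a log2 fold change of 0.23 (SE 0.13, adjusted p = 0.478). Dlk2 was the only other listed ligand that passed the filter, while Dll3 had at most 8 counts and Dlk1 at most 9 counts in a library.

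The enzymes that modify, cut and recycle the receptors and ligands did not pass the test. Of 6 glycosylation genes, 3 had values below 0, the lowest at −0.09, and 3 above with groups that did not overlap. Over all tested genes, groups did not overlap for 18.2%. The 3 above 0, named after their values were seen, were Mfng (log2 fold change 0.39, SE 0.14), Poglut1 (0.30, SE 0.11) and Eogt (0.25, SE 0.11). Their adjusted p was 0.267, 0.293 and 0.387 in edgeR and 0.205, 0.335 and 0.479 in DESeq2. Pofut1, which adds fucose to the receptors, was at −0.01 on the log2 scale (SE 0.10, edgeR adjusted p = 0.984). Of 10 cleavage genes, which include the subunits of gamma-secretase, values ran from −0.40 to 0.21, and the lowest was that of Furin, the protease of the first cut (SE 0.14, adjusted p = 0.270), with groups that did not overlap. Ligand endocytosis was represented by 6 genes, of which Epn1, an adaptor for the uptake of bound ligand, had a log2 fold change of −0.30 (SE 0.14, adjusted p = 0.410). Trafficking and turnover of the receptor was represented by 12 genes with 6 values on each side of 0, and Nedd4, a ubiquitin ligase, was at 0.05 (SE 0.12, adjusted p = 0.896).

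The partners of Rbpj did not pass the test in edgeR either. Of 8 coactivators, 6 had values below 0, and Crebbp, a histone acetyltransferase, had a log2 fold change of −0.29 (SE 0.11, adjusted p = 0.302). Corepressors and other partners numbered 15, with 7 values below 0 and 8 above. The listed gene that passed in DESeq2 beside Rbpj-ps3 was among these 15, with a value below 0. Rbpjl, a paralog of Rbpj, had 4 counts in WT replicate 1 and 0 in the other 5 libraries, and Rbpj-ps1 had 0 counts in all 6. Among the other targets, Nrarp, a feedback inhibitor that Notch signalling turns on, had a mean of 69.0 ± 7.41 CPM in WT and of 69.4 ± 3.84 CPM in CharmeKO (SD, n = 3 each), with a log2 fold change of 0.00 (SE 0.11, adjusted p = 0.991), and of the 8 targets listed 4 passed the filter, none of them with an unadjusted p under 0.05 in edgeR or a call in DESeq2.

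**Figure D5:**
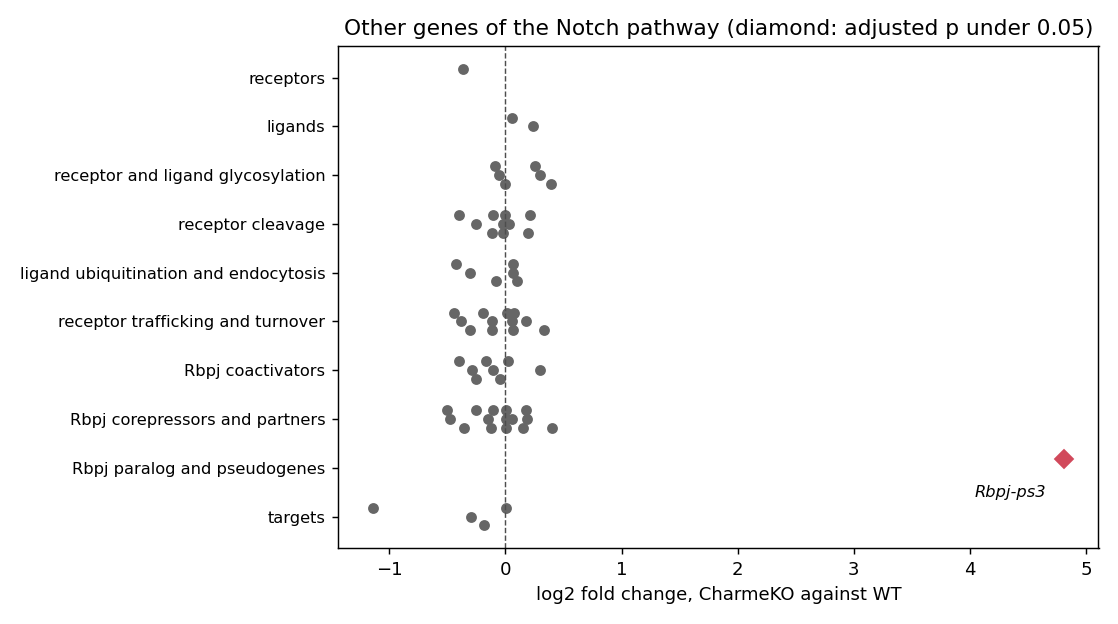
Log2 fold change of CharmeKO against WT for the 65 tested genes of the Notch pathway outside the 10 genes, by role, with each point a gene and a diamond for an adjusted p under 0.05. Rbpj-ps3 stands at 4.81, the coactivators run from −0.40 to 0.29, and the lowest point among the targets, at −1.14, is a gene with a mean under 1 CPM in both groups that did not pass.

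Markers of other cell types were compared between the genotypes beside these values. The summed level of 6 cardiomyocyte markers was 168.3 to 221.5 CPM in WT and 251.5 to 378.2 CPM in CharmeKO, with no overlap, and Myh6 (adjusted p = 0.0292) and Tnni3 (adjusted p = 0.0200) passed edgeR's quasi-likelihood test, while all 6 log2 fold changes were above 0. The summed level of 4 venous endothelial markers was 866.7 to 940.8 CPM in WT and 799.4 to 851.3 CPM in CharmeKO, with no overlap, while no venous marker had an unadjusted p under 0.05 in edgeR or an adjusted p under 0.05 in DESeq2. For 6 arterial endothelial markers the sums were 680.2 to 1064 CPM and 819.0 to 907.8 CPM, and for the leukocyte list, of which 5 of 6 markers were tested, 27.1 to 50.9 CPM and 37.6 to 49.3 CPM. Red cell genes were abundant in both groups, with 26770 to 39210 CPM in WT and 24410 to 31740 CPM in CharmeKO for 5 erythroid markers. No listed marker was at 0 in all 6 libraries. The part of the cardiomyocyte and venous differences in the values of Rbpj, Notch2 and Rbpj-ps3 was not tested. When the division into libraries high in Xist and libraries high in Y-linked transcripts entered the model, an analysis chosen after seeing the data, the log2 fold change was −1.14 for Rbpj and 4.76 for Rbpj-ps3.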

How the data were processed

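Poly(A) RNA of native CFs from 3 WT and 3 CharmeKO samples, grouped by their labels, was sequenced in directional libraries. Quality-filtered reads were mapped by the authors with STAR to a mouse genome (GRCm39, while the submitters' notes list a human build as well). They counted reads per gene with an Ensembl annotation to which Charme had been added, kept the "reverse" strand configuration and deposited the raw counts, without normalization or filter. The counting mode was GeneCounts of STAR, which leaves out reads that map to several places, and this bears on near-identical copies such as Rbpj-ps3.

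The 15789 genes that reached 10 counts in 2 or more of the 6 libraries were scaled with TMM factors and compared by the quasi-likelihood test of edgeR 4.0.16 (R 4.3.3), with Benjamini-Hochberg adjustment over all of them and a threshold of 0.05. Standard errors were derived from the F statistics. The biological coefficient of variation was 20.2%. The labels give only a replicate number and the methods name 3 mice without tying libraries to them, so p-values measure the spread between these samples.

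The 10 genes, the pathway and marker lists and the tests were chosen with earlier results of these data known. Named genes are the 10, the listed pathway genes past the threshold and, in each role, the one with the highest mean CPM without regard to length, of which 1 is not reported here. Other genes named, such as gene neighbours, Dlk2, Dll3, Dlk1, Rbpjl, Rbpj-ps1 and genes that overlap a locus, were chosen after their values were seen.

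Lengths and transcripts came from GENCODE mouse release 21 on GRCm38, another build than that of the counts, and promoters from RefSeq. Copies were searched with blastn 2.17.0. Alternatives were DESeq2 1.42.0, its size factors, upper-quartile normalization, other filters, the replicate number as a block, each library left out, the longest transcript for length and, chosen after seeing the data, a term for Xist and Y-linked transcripts and the summed counts of Rbpj and Rbpj-ps3. Figures were drawn with matplotlib 3.10.9.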

Additional observations from a re-analysis of the deposited data

How the results depend on the processing

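Over 13 alternatives the log2 fold change of Rbpj ran from −1.24 to −1.03, which describes the contrast it was chosen from and is no independent support. That of Rbpj-ps3 ran from 4.47 to 5.56 over the 12 that tested it, which it entered through the CharmeKO libraries. The summed counts of both genes are not among these. Notch1, Notch2, Notch4, Dll4, Jag2 and Hey1 stayed below 0 and Jag1 above 0 under all 13, while Hes1 was at 0.04 without WT replicate 2, and Heyl was at 0.04 without CharmeKO replicate 2 and at 0.01 with the term for Xist and Y-linked transcripts. The number of genes past the threshold, 131, was 394 with DESeq2 and 699 without a filter on low counts, and ranged from 61 (without CharmeKO replicate 1) to 349 (without WT replicate 2) when each library was left out. It was 71 without WT replicate 1, 67 without WT replicate 3 and 67 without CharmeKO replicate 2. Of the 10 genes, 2 passed with DESeq2 (Rbpj and Notch2) and 3 without a filter (Notch4 as well). Of the other pathway genes, 2 passed with DESeq2 and 4 without a filter, Rbpj-ps3 among them in both, and 0 passed with the filter of 10 counts in 5 libraries, which left Rbpj-ps3 out. The cause of these differences between tools and filters was not tested. Between normalizations the median of all genes ran from 0.00 to 0.02 on the log2 scale. With the longest transcript for length, Notch4 took place 2 and Dll4 place 3, and no other place changed.

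With the replicate number as a block, 302 genes passed, among them 1 of the 10 genes, Rbpj, and 1 other pathway gene, Rbpj-ps3. The correlations of same-numbered libraries' deviations were 0.216, 0.053 and 0.161, and each library correlated best with its own number. The labels give no pairing, so the main test left the number out. These values do not settle whether same-numbered samples were paired. Depth limits Rbpj-ps3 in WT, where 12 counts stand for 3 libraries.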

Other observations

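The 5 tested genes whose pattern over the 6 libraries was nearest to that of Rbpj, by root mean square difference of centred log2(CPM + 1), were Il1rl2 (0.120), Lcat (0.128), Gfpt2 (0.152), Cda (0.161) and Sirpa (0.164). In CharmeKO, Lcat was at 2.70 to 4.31 CPM and Cda at 0.532 to 1.65 CPM, levels at which the added 1 narrows differences. For Cda the log2 fold change was −1.75 (SE 0.405), larger in size than that of Rbpj. Gfpt2, an enzyme that makes amino sugars, was at 405.7, 424.3 and 441.7 CPM in WT and at 177.6, 154.0 and 234.7 CPM in CharmeKO, and Sirpa, an inhibitory receptor, was at 60.2, 53.9 and 63.7 CPM and at 33.5, 28.4 and 37.4 CPM. All 5 had their 3 CharmeKO libraries below their 3 WT libraries, as a likeness to Rbpj over these libraries requires, and the values are a description.

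Genes beside the Rbpj and Rbpj-ps3 loci, chosen after their values were seen, were the 5 tested genes on each side in the order of the GRCm38 annotation. Of the 10 genes beside Rbpj, none passed edgeR's quasi-likelihood test or DESeq2, and 1 had an unadjusted p under 0.05, 4932441J04Rik, with a log2 fold change of −1.99 (SE 0.89, adjusted p = 0.382) at a mean of 0.840 CPM. The neighbours on each side, Gm45495 and Tbc1d19, had log2 fold changes of 0.34 (SE 0.47) and 0.17 (SE 0.14). Of the 10 genes beside Rbpj-ps3, which ran from −0.65 to 0.21, none passed edgeR's quasi-likelihood test or DESeq2 either, and 1 had an unadjusted p under 0.05, Arhgef5 (−0.26, SE 0.11, adjusted p = 0.344).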
